A study of Caenorhabditis elegans with 2 samples.

Results

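The genes described here encode the proteins of the mitochondrial ribosome. They were taken as all protein-coding genes of the Caenorhabditis elegans annotation on the assembly WBcel235 whose symbol starts with mrpl- (large subunit, 41 genes) or mrps- (small subunit, 29 genes), 70 of 19985 protein-coding genes in all. A further protein of this ribosome under another kind of symbol, dap-3, is not among them, and the transporter genes with symbols starting mrp- are not mitochondrial ribosomal protein genes. The data were chromatin immunoprecipitation with sequencing (ChIP-seq) of AHA-1, the worm orthologue of the mammalian transcription factor ARNT. The strain was OP124, which carries the transgene wgIs124 with an eGFP-tagged aha-1 in an unc-119(ed3) III background, and the sample was whole L4 larvae, males and females pooled. There was 1 group of 2 biological replicates, with no treatment and no second genotype, and in the labels aha-1 stands as antibody while eGFP-aha-1 stands as target. Because the animals were whole, a peak cannot be assigned to a tissue.

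Mitochondrial ribosomes translate the few proteins encoded in mitochondrial DNA, which in animals are core subunits of the respiratory chain and the ATP synthase. All proteins of the mitochondrial ribosome itself are encoded in the nucleus, made in the cytosol and imported. In C. elegans this ribosome is known for mrps-5, whose knockdown in larvae lengthens life and switches on the mitochondrial unfolded protein response. Dimers of ARNT, for example with hypoxia-inducible factors or the aryl hydrocarbon receptor, are known to bind DNA with the core ACGTG or GCGTG. Promoter binding of AHA-1 at the 70 genes was read from lists of 30000 peaks each, 1 for each replicate and 1 for both replicates pooled, and from a list of 530 peaks kept by the irreproducible discovery rate (IDR). The 30000 pooled peaks were deposited as peaks and background together and are called candidates here. A gene was given the candidate of highest signal whose summit was between 1000 bp upstream and 500 bp downstream of any of its starts. Rank 1 is the highest signal of a list, and signal values are the authors' own, without a unit, to be compared only within a list.

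The DNA at the summits of some of the strongest promoter peaks is shown first, 101 bp centred on each summit. It is from the RefSeq genome of assembly WBcel235, plus strand, 5′ to 3′. Capitals mark ACGTG or GCGTG on either strand, so that CACGT and CACGC are the same cores read from the opposite strand. The sequences are ordered by core and not by rank: the first 3 hold a core and the last 2 hold none. By pooled rank, mrpl-35 (rank 687) and mrpl-37 (rank 721), without a core, were stronger than mrpl-28 (rank 883). The sequences come from IV:4660455-4660555, IV:443842-443942, II:156093-156193, III:3510060-3510160 and II:13575675-13575775, in the order printed. All the summits lie between protein-coding genes.
mrps-21: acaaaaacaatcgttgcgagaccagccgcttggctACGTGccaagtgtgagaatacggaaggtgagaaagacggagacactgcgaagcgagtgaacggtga
mrpl-55: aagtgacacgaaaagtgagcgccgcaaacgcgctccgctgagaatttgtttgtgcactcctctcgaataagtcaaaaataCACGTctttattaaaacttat
mrpl-28: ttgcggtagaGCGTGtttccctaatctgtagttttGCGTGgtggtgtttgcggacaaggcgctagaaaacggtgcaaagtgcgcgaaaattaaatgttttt
mrpl-35: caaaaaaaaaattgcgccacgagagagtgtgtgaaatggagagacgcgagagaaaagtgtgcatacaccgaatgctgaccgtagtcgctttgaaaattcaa
mrpl-37: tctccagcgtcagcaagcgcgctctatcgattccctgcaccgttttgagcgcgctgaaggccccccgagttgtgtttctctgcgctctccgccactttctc
Their GC content was 52.5% for mrps-21, 41.6% for mrpl-55, 45.5% for mrpl-28, 43.6% for mrpl-35 and 60.4% for mrpl-37. The nearest core was 13 bp from the summit at mrps-21, 32 bp at mrpl-55 and 13 bp at mrpl-28, where there were 2 cores.

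Of the mitochondrial ribosomal protein genes, 41 had a promoter candidate and 2 had one in the IDR list. A candidate was found for 41 of the 70 genes, 58.6% (exact 95% binomial interval 46.2 to 70.2%), against 46.8% of all protein-coding genes. With each summit given only to the nearest start the count was 32 of 70, against 41.3% of all genes. An IDR peak was found for 2 genes, mrps-21 and mrpl-55, or 2.86% (0.348 to 9.94%), against 2.09% of all protein-coding genes. Among genes with a candidate the IDR share was 4.88% for mitochondrial ribosomal protein genes and 4.47% for all genes, so at the level of the IDR list these genes were near the background. In the middle ranks the shares were farther apart. Counting the strongest candidates to 2 times the length of the IDR list, a peak was present at 7 mitochondrial ribosomal protein genes, 10% of the 70 (4.12 to 19.5%), against 3.92% of all genes. At 5 times its length the number was 14, 20%, against 8.08% of all genes. Rank 5000 or better was reached by 19, 27.1% (17.2 to 39.1%), against 12.9%, and rank 10000 or better by 28, 40% (28.5 to 52.4%), against 21.6%. By the deposited q-value, 20 of the 70 genes (28.6%) had a best candidate with q up to 0.05, against 14.4% of all protein-coding genes. No test was made of any of these differences, and the intervals cover the counting of genes only.

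The signal of the best candidate ranged from 5.06 at mrpl-21 to 59.9 at mrps-21, and its median was 9.49, while all genes with a candidate had a median of 8.03. The median rank was 7110, with quartiles of 1920 and 12146, against 11091.5 for all genes with a candidate, with quartiles of 4315 and 19499.5. In the replicate 1 list alone the median was 10965, against 11724 for all genes, and in the replicate 2 list alone 8023, against 11479.5. Signal was above the median of all 30000 candidates, 7.08, at 32 of the 41 genes. The median of the best candidates of all genes, 8.03, was also above that value. The 41 genes had 40 different best peaks, because mrpl-1 and mrps-24 shared 1. A second candidate in the window was present at 13 of the 41 genes, against 2610 of the 9352 of all genes with a candidate. The other 28 genes had only 1.

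**Figure D1:**
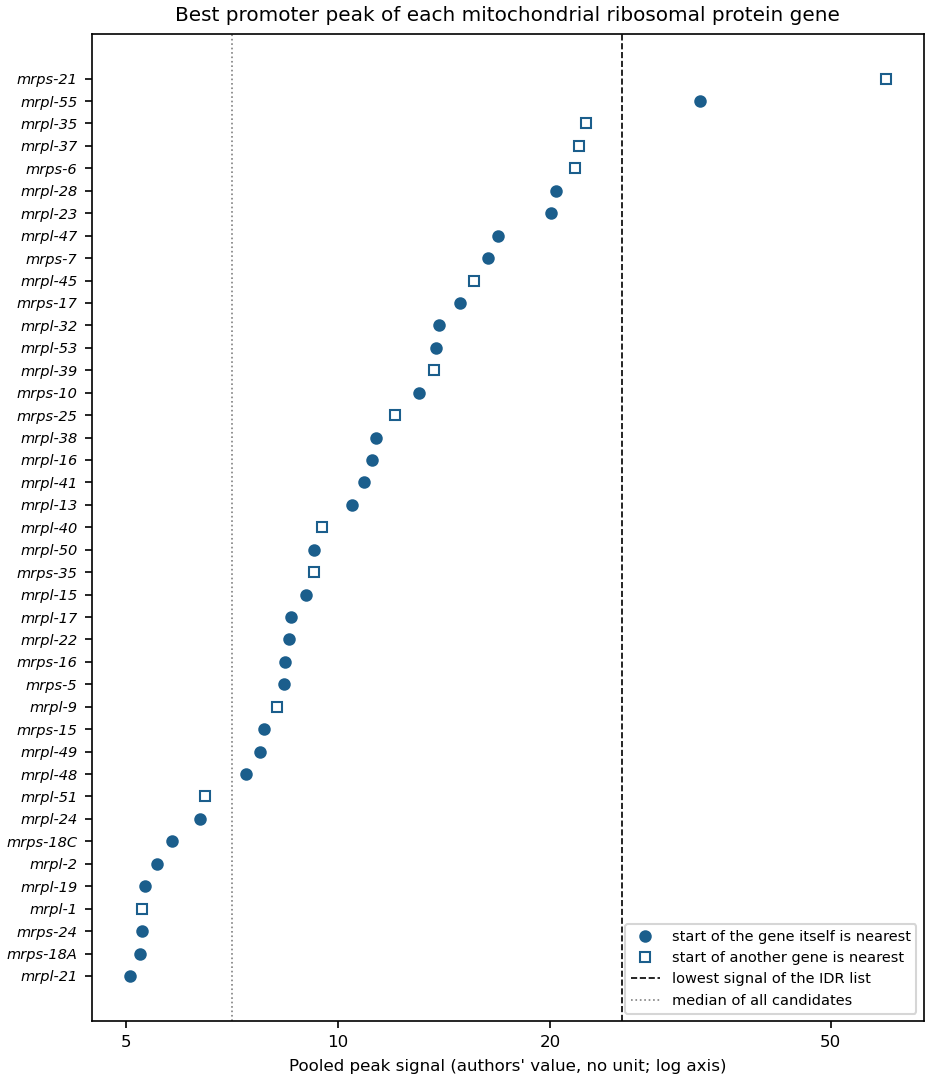
Signal of the best promoter candidate of each of the 41 mitochondrial ribosomal protein genes that had one, on a log axis, with filled circles where the gene's own start is nearest to the summit and open squares where another gene's start is nearer. mrps-21 (59.9) and mrpl-55 (32.6) are right of the dashed line at 25.2, the lowest signal of the IDR list, and 9 genes are left of the dotted line at 7.08, the median of all candidates.

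The strongest peak belonged by the window to mrps-21 (WBGene00017924), whose product is related to bacterial ribosomal protein S21 of the small subunit. It covered IV:4660347-4660662, had a signal of 59.9 and was rank 59 of the pooled list. Its counterpart was rank 349 in replicate 1, with a signal of 15.5, and rank 29 in replicate 2, with a signal of 46.0. Both replicates placed it among their strongest 530 peaks. The summit was 988 bp upstream of mrps-21, close to the window's edge, and 304 bp upstream of F29B9.11, the nearest start. It was also 486 bp upstream of jmjd-1.2, a histone demethylase gene known in worms for its part in the mitochondrial stress response. F29B9.11 is on the strand of mrps-21 and ends 114 bp before it. In replicate 1 the summit was 1026 bp upstream of mrps-21, just outside the window, and in replicate 2 it was 974 bp upstream.

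The second IDR peak was at mrpl-55 (WBGene00022045), a large subunit gene, at IV:443734-444049. Its signal was 32.6 and its pooled rank 259. It was rank 311 in replicate 1 (signal 16.2) and rank 518 in replicate 2 (signal 15.6), which made it the more even of the pair between replicates. The summit was 93 bp upstream of mrpl-55, and no other protein-coding gene had this summit in its window.

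Below the IDR list came mrpl-35 (WBGene00010812), whose product is related to bacterial L35. Its peak at III:3509952-3510267 was rank 687 with a signal of 22.5. It was rank 4632 in replicate 1 and rank 530 in replicate 2. Its summit was 127 bp upstream of mrpl-35 and 77 bp upstream of M01F1.4, which starts on the opposite strand. mrpl-37 (WBGene00013004), a large subunit gene, was rank 721 with a signal of 22.0 at II:13575567-13575882. Here replicate 1 was the stronger, with rank 540 against rank 5239 in replicate 2, and the summit was 657 bp from mrpl-37 and 200 bp from the divergent gene lin-38. mrps-6, related to bacterial S6, was rank 749 with a signal of 21.7, and had ranks of 2702 in replicate 1 and 593 in replicate 2. That summit was 115 bp upstream of rpn-8, a gene for a proteasome subunit, and 430 bp upstream of mrps-6. Thus 3 of the 5 strongest summits were nearer to a divergent neighbour than to the ribosomal protein gene, and the summit at mrps-21 was nearer to a gene on its own strand.

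The peak of mrpl-28 (WBGene00020796), a gene related to that of bacterial L28, rested on replicate 2. At II:155985-156300 its pooled rank was 883, with a signal of 20.4, and the counterpart in replicate 2 was rank 191 with a signal of 22.1. No replicate 1 peak overlapped it, and the best replicate 1 peak in the promoter window of mrpl-28 was rank 27991. The summit was 134 bp upstream of mrpl-28, with no other gene sharing it. mrpl-23, related to the bacterial L23 protein at the exit tunnel, was rank 921 with a signal of 20.03, and ranks of 2904 and 1755 in replicates 1 and 2. Its summit was 961 bp upstream, inside an intron of fars-1, a gene for a subunit of phenylalanyl-tRNA synthetase that ends 96 bp before mrpl-23 on the same strand.

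Between ranks 1355 and 2442 there were 7 further genes. mrpl-47, related to bacterial L29, was rank 1355 (signal 16.9) with its summit 54 bp upstream, and had a counterpart in replicate 2 (rank 1167) but none in replicate 1. mrps-7, related to bacterial S7, was rank 1487 (signal 16.3), with ranks of 1131 and 2619 in replicates 1 and 2, one of the more even pairs. mrpl-45, whose human counterpart tethers the ribosome to the inner membrane, was rank 1695 (signal 15.6), with ranks of 18629 and 2213. mrps-17, related to bacterial S17, was rank 1920 (signal 14.9), with ranks of 2946 and 17244. mrpl-32, related to bacterial L32, was rank 2343 (signal 13.9), with ranks of 3838 and 10362 and a summit 938 bp upstream in a coding exon of the proteasome subunit gene rpn-3. mrpl-53 was rank 2404 (signal 13.8), with ranks of 2472 and 28889 and a summit 92 bp downstream of its start. mrpl-39 was rank 2442 (signal 13.7), with ranks of 4813 and 9281, and its summit was in gly-7, 49 bp inside the start of that gene. Among these 7, only mrps-7 had overlapping peaks ranked better than 5000 in both replicates. The window of mrpl-32 also held another replicate 2 peak, of rank 2327, which did not overlap the pooled one.

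The lower end held peaks close to the weakest in the list. mrpl-19 (signal 5.33, rank 25985), mrps-18A (5.23, rank 26750) and mrpl-21 (5.06, rank 28066) each had no counterpart in replicate 1. In replicate 2 mrpl-19 was rank 9515 and mrps-18A rank 18463, and mrpl-21 had no counterpart there either. mrpl-1 and mrps-24, related to bacterial L1 and S3, shared a summit of signal 5.28 and rank 26403, which was 227 bp upstream of mrpl-1, 117 bp upstream of mrps-24 and also in the window of emc-6. That peak was rank 8153 in replicate 2 and had no counterpart in replicate 1. mrps-5, the gene known for its effect on worm lifespan and chosen here for that role, was rank 9937 with a signal of 8.38. Its ranks were 4994 in replicate 1 and 9331 in replicate 2, its −log10 q-value was 0.769 against a maximum of 3.27 in the list, and the summit was 255 bp downstream of the start, in its own coding exon.

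Mitochondrial ribosomal protein genes stood lower in the list than the 78 genes of cytosolic ribosomal proteins (rpl- and rps-), whose ribosome makes all proteins encoded in the nucleus. A candidate was present at 41 of 70 mitochondrial (58.6%) and 73 of 78 cytosolic ribosomal protein genes (93.6%). An IDR peak was present at 2 of 70 mitochondrial (2.86%) and 28 of 78 cytosolic genes (35.9%), and rank 5000 or better was reached by 27.1% and 66.7% of them. The median rank of the best candidate was 7110 at mitochondrial and 1008 at cytosolic ribosomal protein genes, and the median signal was 9.49 and 19.2. The highest mitochondrial gene, mrps-21 at rank 59, was below rpl-3, the highest cytosolic gene, at rank 5. Respiratory chain genes were a list of 43 symbols, of which 42 were matched. They had candidates at 35 (83.3%) and IDR peaks at 11 (26.2%), with a median rank of 1703. Over all protein-coding genes the shares were 46.8% and 2.09%, and the median rank of those with a candidate was 11091.5. The strongest were cox-5A (rank 29, signal 75.7), sdha-1 (rank 42, signal 69.2), cox-5B (rank 126, signal 43.8) and mev-1 (rank 131, signal 43.0), which encode subunits of cytochrome c oxidase and of succinate dehydrogenase. With the replicate 1 list alone, the count of respiratory chain genes among the top 530 peaks was 5.

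Other genes of mitochondrial gene expression had candidates about as often as mitochondrial ribosomal protein genes. By median rank they were nearer to all genes. The list of 35 symbols was meant to cover translation factors, mitochondrial tRNA synthetases, and genes of mitochondrial transcription and replication. Of these, 27 were matched, by symbol alone, so the function of each matched gene was not checked. A candidate was present at 16 (59.3%), against 46.8% of all genes, and no gene had an IDR peak. Rank 5000 or better was reached by 5 (18.5%), against 12.9% of all genes. Their median rank was 10981, against 7110 for mitochondrial ribosomal protein genes and 11091.5 for all genes with a candidate. Best ranked was aars-1, an alanyl-tRNA synthetase gene, at rank 1348, and dap-3 had no candidate. None of the differences between these lists was tested, and the lists hold genes that share summits with each other and with other genes.

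**Figure D2:**
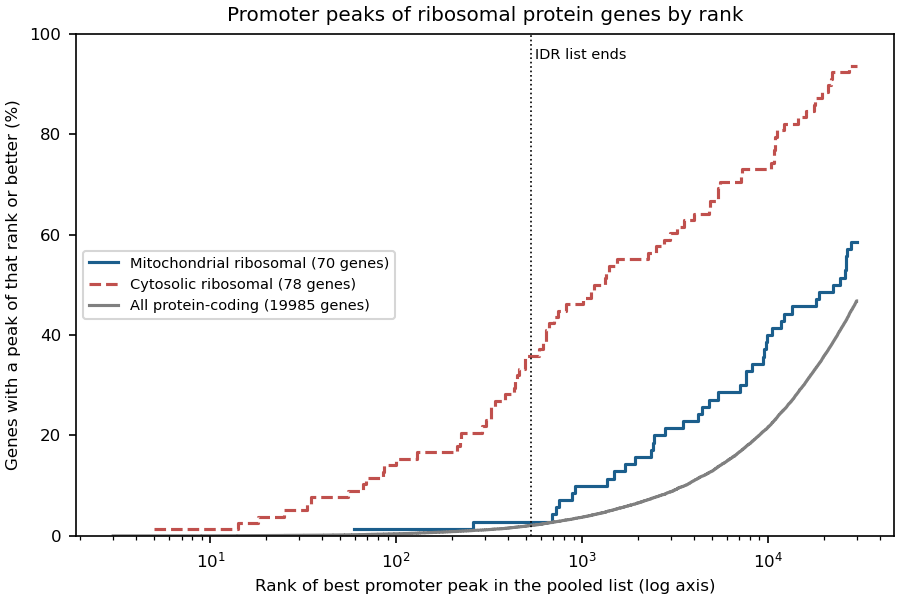
Share of genes whose best promoter candidate has a given rank or better in the pooled list, with the rank on a log axis, for mitochondrial ribosomal protein genes (solid blue), cytosolic ribosomal protein genes (dashed red) and all protein-coding genes (grey). At the dotted line where the IDR list ends, rank 530, the shares are 2.86%, 35.9% and 2.09%, and at the right edge 58.6%, 93.6% and 46.8%.

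The replicates ranked these peaks unevenly. Of the 41 best candidates, 23 overlapped a peak in both replicates, 56.1% (39.7 to 71.5%), against 34% of the best candidates of all genes. A further 4 overlapped a peak in replicate 1 only, 13 in replicate 2 only, and 1 (mrpl-21) in neither. Counterparts were present in replicate 1 for 65.9% and in replicate 2 for 87.8% of the mitochondrial ribosomal protein genes, against 55.8% and 66.3% for all genes. The pooled list contains both replicates, so a counterpart is not independent of it. Among the 23 with both, replicate 1 had a median rank of 4786 and replicate 2 one of 5530, and replicate 1 gave the better rank 11 times and replicate 2 12 times. The ranks differed by more than 5 times for 9 of the 23, 39.1%, against 27.2% for all genes. Both ranks were 1000 or better for mrps-21 and mrpl-55 alone. Both were 5000 or better for 7 genes, 17.1% of the 41, against 8.60% for all genes with a candidate.

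The largest disagreements went both ways. The peaks of mrpl-53 and mrpl-40 were far better ranked in replicate 1, with differences of 26417 and 15057 ranks. At mrpl-40 the overlapping peaks had rank 3320 in replicate 1 and 18377 in replicate 2, but another replicate 2 peak in its window had rank 1691, so for the gene the order of the replicates was the reverse. mrps-10, mrpl-45 and mrpl-16 were far better ranked in replicate 2, with differences of 18723, 16416 and 16134. For mrps-10, related to bacterial S10, the ranks were 21172 in replicate 1 and 2449 in replicate 2, and for mrpl-16, related to bacterial L16, 20051 and 3917. All 5 were among the pooled candidates ranked 7110 or better.

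Each replicate's own list gave a similar count when read without the pooled list. In replicate 1, 14 of the 70 genes had one of its top 5000 summits in the window, against 11.6% of all genes. In replicate 2 there were 17, against 12.4% of all genes. In both lists there were 7 genes, 10% of the 70 (4.12 to 19.5%), against 4.95% of all genes. They were mrpl-55, mrpl-35, mrps-6, mrpl-23, mrps-7, mrpl-32 and mrpl-40. For comparison, 38 of the 78 cytosolic ribosomal protein genes met the same condition. The top 530 of replicate 1 held only mrpl-55 of the 70, against 2.00% of all genes. The top 530 of replicate 2 held 4 genes, mrps-21 at rank 29, mrpl-28 at rank 191, mrpl-55 at rank 518 and mrpl-35 at rank 530, against 2.08% of all genes.

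**Figure D3:**
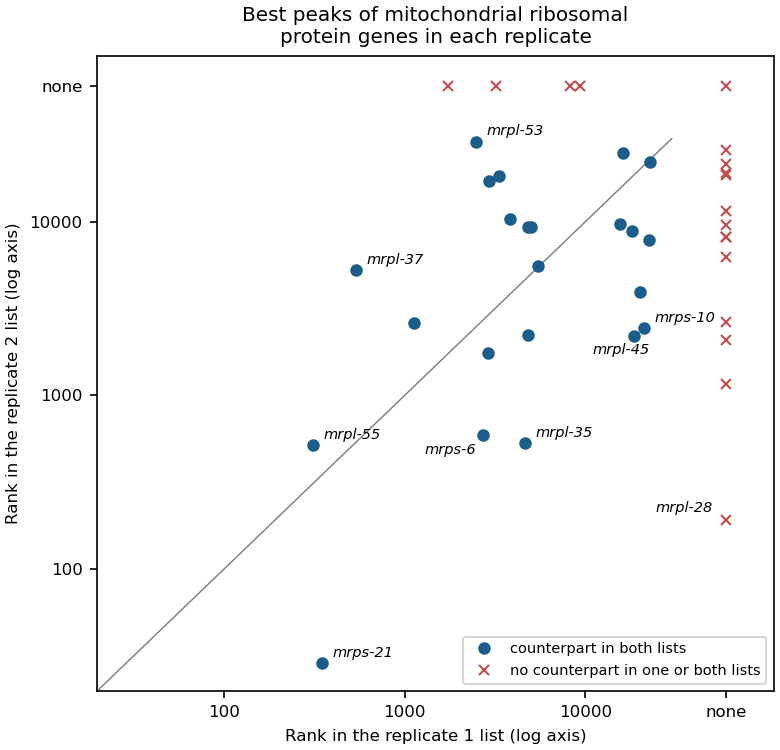
Rank of each gene's best candidate in the replicate 1 list (horizontal) and the replicate 2 list (vertical), both on log axes, with the grey line at equal ranks. Circles are the 23 genes with a counterpart in both lists, crosses the 18 without one in at least 1 list, drawn at "none". mrps-21 and mrpl-55 are in the lower left corner, and mrpl-28 is at "none" for replicate 1.

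Summits were mostly upstream and close to the start. Of the 41 best summits 35 were upstream of the gene's own nearest start and 6 downstream, from 988 bp upstream to 428 bp downstream. The window itself reaches farther upstream (1000 bp) than downstream (500 bp). With upstream counted as negative, the median position was -187 bp, against -210 bp for all genes, so the median summit was upstream in both. The share of all genes' best summits lying upstream was not counted, so the 35 of 41 has no background beside it. Within 300 bp upstream there were 21, 51.2%, against 31.9% of the best summits of all genes. The median distance from the start was 210 bp, against 298 bp for all genes. Summits were between protein-coding genes at 27 (65.9%), in a coding exon at 9 (22.0%), in a UTR exon at 3 (7.32%) and in an intron at 2 (4.88%). For the best summits of all genes the shares were 51.4%, 18.4%, 8.97% and 21.2%, so introns held fewer of the mitochondrial ribosomal summits.

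Many of these summits lay also in the promoter window of another gene. The summit was also in the window of another protein-coding gene at 23 of the 41 genes, 56.1%, against 26.7% for all genes. The member's own start was the nearest at 29, 70.7% (54.5 to 83.9%), against 85.4% for all genes. At the other 12 a different start was nearer, and for 10 of them it was that of the divergent neighbour. Partners at shared summits included the proteasome subunit gene rpn-8 with mrps-6, the nuclear pore gene npp-25 with mrps-10, the casein kinase subunit gene kin-3 with mrpl-9, the ATP synthase subunit gene asg-1 with mrps-15, and the cytosolic ribosomal protein gene rpl-28 with mrpl-49. These partners were picked as examples from the shared summits after their values were seen.

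The gene surroundings of the family differ from those of most genes. A divergent neighbour, starting within 1000 bp on the opposite strand, was present at 26 of the 70 (37.1%), against 17.7% of all genes. Such a neighbour was present at 60.3% of cytosolic ribosomal protein genes and 52.4% of respiratory chain genes. Whether these surroundings bear on the ranks of the lists was not tested. With a divergent neighbour, 19 of 26 mitochondrial ribosomal protein genes had a candidate (73.1%) and 10 one of rank 5000 or better (38.5%), against 52.6% and 21% of all genes with such a neighbour. Without one, 22 of 44 had a candidate (50%) and 9 one of rank 5000 or better (20.5%), against 45.5% and 11.1% of all such genes. The 2 genes with an IDR peak, mrps-21 and mrpl-55, had no divergent neighbour by this measure. Over all genes, an IDR peak was found for 4.92% of those with such a neighbour and 1.48% of those without. The summit given to mrps-21 was nearer to other starts, 304 bp upstream of F29B9.11 and 486 bp upstream of jmjd-1.2. The share at rank 5000 or better was above that of all genes both with and without such a neighbour. It rests on 10 and 9 genes, and the difference was not tested. A gene on the same strand ending within 500 bp upstream, an arrangement seen in worm operons, was present at 27 (38.6%), against 18.1% of all genes. Their median gap was 106 bp. The share was 10.3% for cytosolic ribosomal protein genes and 26.2% for respiratory chain genes. A candidate was present at 13 of these 27 (48.1%) and at 28 of the other 43 (65.1%), and rank 5000 or better at 5 (18.5%) and 14 (32.6%). For all genes with and without such a neighbour the candidate shares were 46.3% and 46.9%, and the shares at rank 5000 or better 10.99% and 13.3%. Operon annotation was not used here, so transcription of these 27 from an upstream promoter was not tested.

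**Figure D4:**
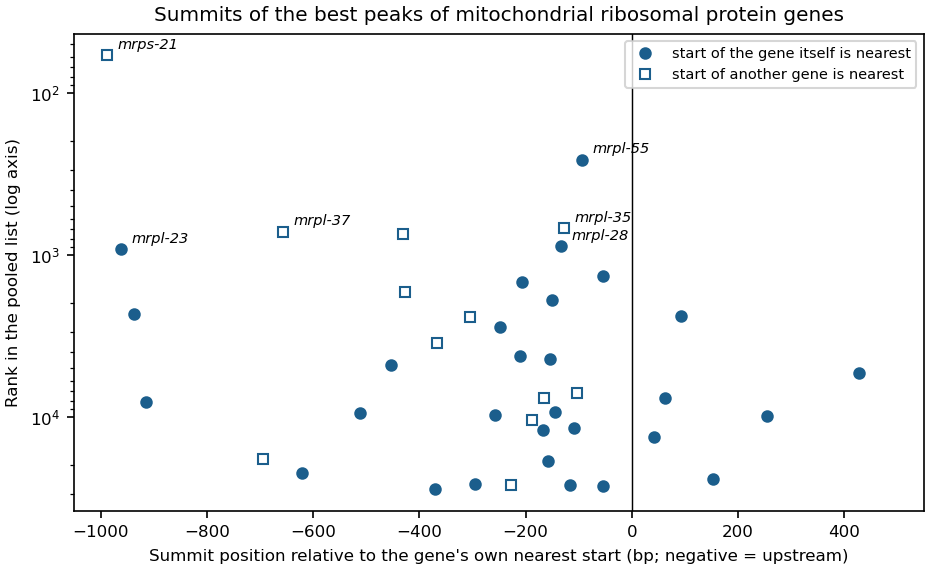
Position of the best summit relative to the gene's own nearest start (horizontal, bp, negative upstream) against pooled rank (vertical, log axis, rank 1 at the top) for the 41 genes. Filled circles are summits nearest to the gene itself and open squares those nearer to another gene. mrps-21 and mrpl-23 sit near the upstream edge of the window, at 988 and 961 bp, while mrpl-55, mrpl-35 and mrpl-28 sit within 300 bp of the start.

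Large subunit genes had a candidate more often in count than small subunit genes, 28 of 41 (68.3%) against 13 of 29 (44.8%). Rank 5000 or better was reached by 13 of the mrpl- and 6 of the mrps- genes, each subunit had 1 IDR peak, and the median ranks were 6238 and 7665. Split by number, genes numbered as bacterial ribosomal proteins are (mrpl- up to 36, mrps- up to 21) had a candidate at 25 of 41, with a median rank of 9378, and genes of higher number at 16 of 29, with a median rank of 4518.5. Among higher numbers, 13 of 17 mrpl- genes had a candidate, against 3 of 12 mrps- genes. The number is only a guide to descent, since mrpl-47 and mrps-24, for example, also have bacterial relatives. By chromosome, 22 of the genes were on III, 15 on I, 12 on II, 11 on IV, 10 on V and none on X, which holds 13.7% of all protein-coding genes. Leaving X out, the shares of all genes were 46.2% with a candidate, 2.01% with an IDR peak and 12.5% at rank 5000 or better, little different from those with X.

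The core ACGTG or GCGTG, searched on both strands within 50 bp of the summit, was present at 11 of the 41 best candidates, 26.8% (14.2 to 42.9%), against 20.3% of the best candidates of all genes, 16.4% of all candidates and 49.4% of IDR peaks. The genes were mrps-21, mrpl-55, mrpl-28, mrps-17, mrps-25, mrpl-17, mrpl-9, mrpl-49, mrpl-48, and mrpl-1 with mrps-24 at their shared summit. The genes next in rank after mrpl-55, which were mrpl-35 (rank 687), mrpl-37 (rank 721) and mrps-6 (rank 749), had none. At mrps-25 the core was 2 bp from the summit, at mrpl-17, which had 2 cores, 4 bp, and at mrpl-48, also with 2, 8 bp. Its share was close among stronger and weaker candidates of these genes. In sum the core was present at 5 of the 19 with rank 5000 or better (26.3%) and at 6 of the 22 beyond (27.3%). For all genes these shares were 30.9% and 16.2%. The longer form TACGTG occurred at mrps-21 alone (2.44%, against 2.67% for all genes), and the palindrome CACGTG at none (2.16% for all genes). GAGAGA, a repeat common in worm promoters, was within 50 bp at 6 (14.6%, against 10.4%), TTTCAG, the end of the worm splice acceptor, at 8 (19.5%, against 17.6%), and TATAAA at 3 (7.32%, against 10.03%). In the 300 bp from 250 bp upstream to 50 bp downstream of the start, without regard to peaks, the core was in 35 of the 70 promoters (50%), against 41.0% of all promoters, and TTTCAG in 47 (67.1%), against 51.7%. A match of these letters is a description and not a binding site.

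The 29 genes without a candidate were mrpl-4, mrpl-10, mrpl-11, mrpl-12, mrpl-18, mrpl-20, mrpl-30, mrpl-34, mrpl-36, mrpl-42, mrpl-44, mrpl-46 and mrpl-54 of the large subunit, and mrps-2, mrps-9, mrps-11, mrps-12, mrps-14, mrps-18.C, mrps-18B, mrps-22, mrps-23, mrps-26, mrps-27, mrps-28, mrps-30, mrps-31, mrps-33 and mrps-34 of the small subunit. The annotation lists mrps-18.C and mrps-18C as separate genes, and mrps-18C had a candidate of rank 22459. The nearest pooled candidate of the 29 was at a median distance of 2091 bp, from 523 bp at mrps-14 to 8446 bp at mrps-22. Just outside the window, mrps-28 had a candidate of rank 908 at 1049 bp upstream, mrps-2 one at 1103 bp upstream, and mrpl-36 one at 561 bp downstream. Just inside it were the summits of mrps-21 at 988 bp and mrpl-23 at 961 bp upstream, and mrpl-13 at 428 bp downstream. In the replicates' own lists, 6 of the 29 had a peak in the window in replicate 1 only, 7 in replicate 2 only, 4 in both and 12 in neither. Neither these counts nor the distances were taken for all genes without a pooled candidate, so they have no background beside them. The best ranks among them were 10526 in replicate 1, at mrps-31, and 3568 in replicate 2, at mrps-27. A gene without a candidate had no summit among the 30000 listed, which does not show that AHA-1 was absent there.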

How the data were processed

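AHA-1 ChIP-seq was deposited as peak lists for 2 biological replicates of 1 group of L4 larvae, whose libraries were 150 to 350 bp per the labels. Each replicate, and both pooled, had peaks called against a control per the deposited text, and the optimal rule set the IDR list. No aligner, peak caller or IDR threshold is given in the sources used here. The signal of each peak and its −log10 q-value are the authors' values as deposited. How the signal was scaled is not given. In the pooled list 928 peaks shared the highest −log10 q-value, so peaks were ranked by signal. The lists carry no read counts, so depth is unknown.

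The lists on ce11 were set on WBcel235, which is that assembly, using genes of Ensembl release 115 and sequence from RefSeq. A check showed the IDR peaks to be the 530 strongest pooled peaks. Lists on ce10 were not used. A counterpart in a replicate was a peak overlapping by at least 1 bp. Shares have exact Clopper-Pearson 95% intervals, which cover counting error only. With 1 group no p-value was computed. The mitochondrial ribosomal protein genes and the other gene lists were chosen with earlier results of these data known. Genes named with values were those with an IDR peak, the next 12 by signal, the 5 with the largest rank difference between replicates, the 5 of lowest signal, those sharing a summit with another member, those with no candidate, and up to 4 with an IDR peak from each other list. Other genes given with values were chosen after their values were seen. Sequences were those of highest signal outside chromosome I, with 2 lacking the core. The alternatives tried were each replicate alone, a narrower and a wider window, the nearest start only, other thresholds, overlaps and motif windows, and, added after seeing the data, the outermost start of each gene and a q-value limit of 0.05. Counting was tested on simulated data, with Python 3.11.15, pandas 2.3.3 and numpy 2.4.6.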

Additional observations from a re-analysis of the deposited data

How the results depend on the processing

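With 1 replicate's list in place of the pooled one, the number of mitochondrial ribosomal protein genes among the top 530 peaks, 2 in the pooled list, ranged from 1 to 4, and the median rank, 7110, from 8023 to 10965 (all genes 11479.5 and 11724). mrpl-55 was among them under every list and window tried. mrps-21 was not with replicate 1 alone, with a window of 500 bp upstream to 100 bp downstream (1 gene) or with summits given only to the nearest start (1 gene). With 2 times as many of the strongest candidates as the IDR list holds, the count was 7. Counting only candidates with q up to 0.05 took the genes with a candidate to 20 of the 41. Counterparts in both replicates were 15, in place of 23, with summits within 100 bp (20.1% of all genes' best candidates), and cores 5, in place of 11, within 25 bp (11.2%). The respiratory chain count ranged from 5 to 11 over the replicates. Genes with a candidate numbered 35 with the narrow window (29.1% of all genes) and 32 with the nearest start only (41.3%). Genes with rank 5000 or better, 19, numbered 13 with the nearest start only (10.6% of all genes) to 22 with the wider window (18.0%). The canonical transcript alternative was not run, since the annotation marks none. No paired analysis was possible because there was 1 group. The lists give no read counts, so how depth limits these counts was not tested.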
